A study of Mus musculus with 12 samples.

Results

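The 10 genes of the elastic fibre and its microfibrils described here were followed across 12 arrays of mouse embryonic fibroblasts, the primary connective tissue cells grown out of whole embryos. They were elastin (Eln), the fibrillins Fbn1 and Fbn2, the microfibril-associated glycoproteins Mfap2 and Mfap5, and the fibulins Fbln1, Fbln2, Fbln5, Efemp1 and Efemp2. The members were fixed by name, and every probe whose annotated accession matched a member's RefSeq symbol was taken. This gave 10 genes with 14 probes, of 19507 genes or unnamed transcripts tested and 39429 probes on the array. Fbn2, Fbln1, Fbln5 and Mfap2 had 2 probes each, and the probe with the highest mean stood for the gene.

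The study crossed genotype with time in culture, and its title sets the question of what loss of the calcium channel gene Itpr2 does to fibroblasts at early or late passage. The 4 groups held 3 arrays each. WT early and WT late were wild-type cells after 3 and 5 passages, and KO early and KO late were Itpr2 knock-out cells after 3 and 5 passages. All cells came from embryos at E12.5, grew in the same serum-containing medium without drug, and gave 100 ng of total RNA per array, labelled with Cy3. The design text names 3 independent animals per genotype. The strain, the knock-out allele and whether early and late arrays came from the same cultures were not given in the sources used here, so p-values measure the spread between these arrays.

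An elastic fibre is a core of crosslinked elastin laid on a scaffold of microfibrils, which are strings of fibrillin molecules decorated with microfibril-associated glycoproteins. Fibulins bridge tropoelastin, fibrillin and the crosslinking enzymes of the lysyl oxidase family, and fibrillin microfibrils also hold latent TGF-beta and BMP growth factors in the matrix. Fibroblasts are a main source of these proteins in embryonic connective tissue, and fibrillin-2 is best known from developing tissue, fibrillin-1 from tissue of all ages.

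Each level below is the log2 signal of the gene's probe relative to the 75th percentile of its array, so 1 unit is a doubling and 0 is the signal of that percentile. Probes differ in how strongly they bind, so levels were compared between arrays for 1 probe and not between genes. On every array 59.1% to 67.5% of probes were well above background, replicates correlated at 0.985 to 0.997, and all 10 fibroblast markers passed the filter on dim probes. All 14 member probes were well above background on 12 of 12 arrays and none was saturated. Some arrays stood apart. Xist, transcribed from the silenced X of females, was above background on KO late replicates 1 and 2 and on replicate 1 of both WT groups, but on 0 KO early arrays. KO late replicates 1 and 2 thus matched no KO early array in Xist, the same-numbered ones included. The KO groups therefore do not look like the same 3 animals at both passages. KO late replicate 3 had no Xist above background. Each KO passage difference thus sets KO early arrays without Xist against a KO late group in which replicates 1 and 2 carried it. Slides 1 and 2 were unmatched in this, and slide 3 was matched. KO late against WT late was uneven too, with Xist on KO replicates 1 and 2 and WT replicate 1, as was the difference of the passage responses. KO early replicate 3 lay at -24.9 on the first principal component (41.0% of variance), among the early arrays and far from the KO late arrays at 46.0 to 49.7. On the second component (19.4%) it lay at -23.5, close to the KO late range of -25.7 to -30.9. The single Itpr2 probe was not lower on KO arrays and does not check the genotype. Mfap5 and Fbln2 lie on the chromosome of Itpr2, with 277 and 455 protein-coding genes in between.

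**Figure D1:**
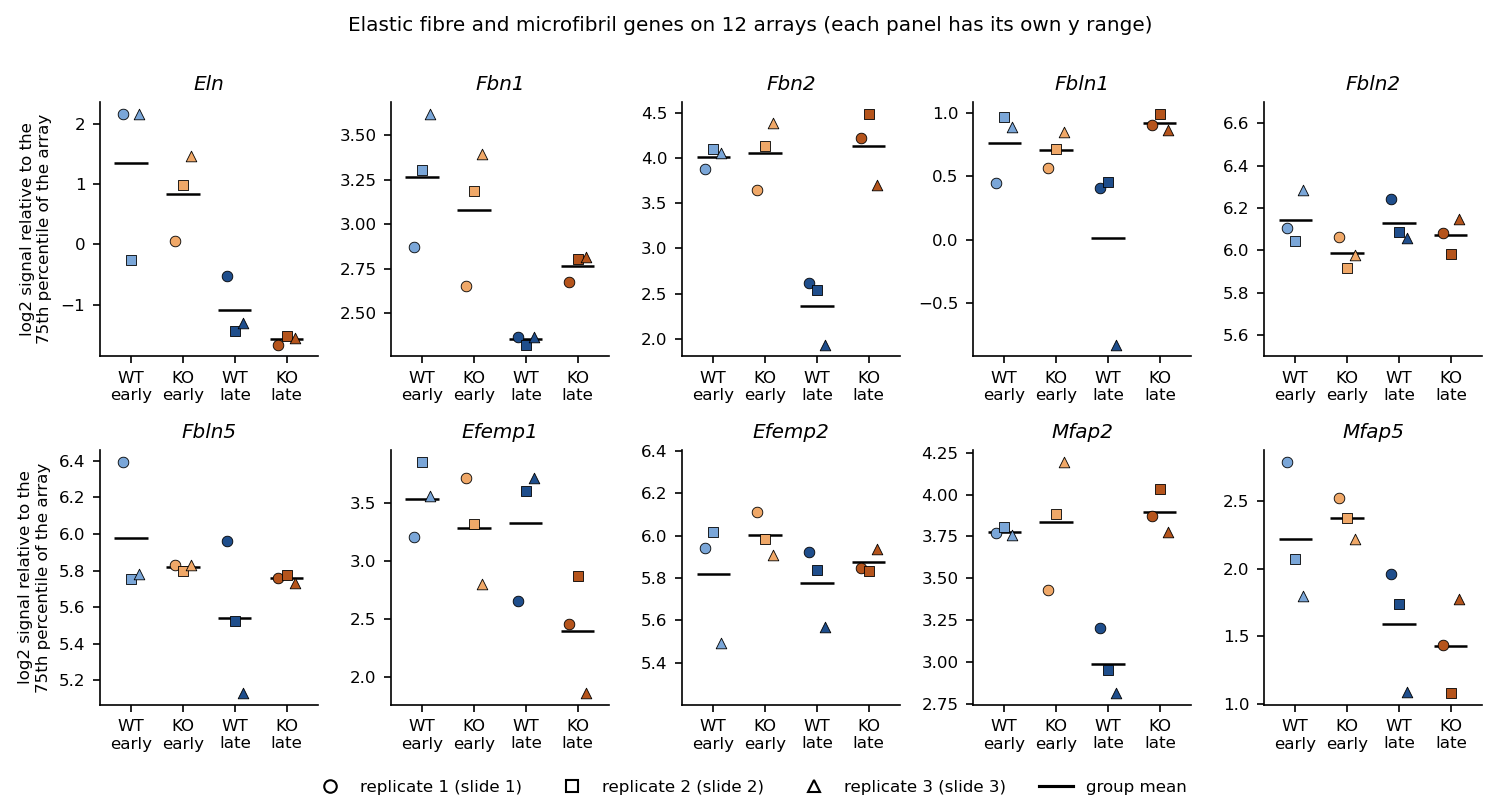
Log2 signal relative to the array's 75th percentile (y axis, own range per panel) of the 10 genes in the 4 groups (x axis), with 1 symbol per array, its shape giving the replicate and slide, and a bar at the group mean. Eln was lowest in both late groups, while Fbn2 and Mfap2 were low in WT late arrays and similar in the other 3 groups.

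The profiles over the 4 groups differed between members. Fbn1, Fbn2, Fbln1 and Mfap2 had their lowest mean in WT late arrays, as did Fbln5 and Efemp2 by smaller margins. Eln and Mfap5 had lower means at late than at early passage in both genotypes, and Efemp1 had its lowest mean in KO late arrays. Fbln2 and Efemp2 hardly moved, with group means that spanned 0.16 and 0.22 log2 units, against a span of 2.94 for Eln.

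At early passage the question was whether young KO cells already differed from young WT cells, and for these genes no difference was detected. A gene was called when its adjusted p in the limma fit, with Benjamini-Hochberg adjustment over all genes tested, was under 0.05. Of 10 members 0 were called, beside 0.0359% of all genes tested, and 0 members had an unadjusted p under 0.05. In 0 of 10 members did the 3 KO and 3 WT arrays separate without overlap, beside 9.54% of all genes. The median KO minus WT difference was -0.11 over the members and 0.02 over all genes. Fbn2, the fibrillin of developing tissue, differed by 0.05 log2 units with a 95% interval from -0.51 to 0.61. The interval for Mfap2, a microfibril glycoprotein that binds fibrillin and tropoelastin, ran from -0.33 to 0.45. Eln had the widest interval, from -1.85 to 0.81 around a difference of -0.52, which leaves both a fall and a rise of elastin within the interval.

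The width of the elastin interval came from its spread among early arrays. Eln was 2.16, -0.26 and 2.17 in WT early replicates 1 to 3 and 0.06, 0.99 and 1.47 in KO early replicates 1 to 3. WT early replicate 2 was below all KO early arrays while the other WT arrays were above all of them. Without that array the KO minus WT difference was -1.33 (adjusted p = 0.38).

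At late passage KO and WT cells differed in a fibrillin and a microfibril glycoprotein. Fbn2 was 3.43-fold and Mfap2 1.88-fold higher in KO late than in WT late arrays, and 0 members were called lower. These 2 of 10 members stood beside 3.46% of all genes called higher, 4.37% called lower and 7.83% called in either direction. The KO and WT arrays did not overlap for 5 of 10 members, namely Fbn1, Fbn2, Fbln1 and Mfap2 on the higher side and Eln on the lower, beside 39.3% of all genes. The median difference was 0.16 over the members and -0.0081 over all genes.

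Fbn2 was 2.62, 2.54 and 1.93 in WT late replicates 1 to 3. In KO late replicates 1 to 3 it was 4.23, 4.49 and 3.70. The lowest KO array lay above the highest WT array by more than the range of either group. KO exceeded WT by 1.78 ± 0.25 (SE, n = 3 per group, adjusted p = 0.0049), which ranked 124th by the size of its moderated t statistic among 19507 genes, and it was 1.60, 1.96 and 1.77 within slides 1 to 3. The dimmer Fbn2 probe gave 1.74 ± 0.39 (adjusted p = 0.028 over all probes).

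Mfap2 was 3.20, 2.95 and 2.81 in WT late replicates 1 to 3. In KO late replicates 1 to 3 it was 3.88, 4.03 and 3.78. The groups were separate, with KO higher by 0.91 ± 0.17 (SE, n = 3 per group, adjusted p = 0.016), and the differences within slides were 0.68, 1.08 and 0.97. The dimmer Mfap2 probe gave 0.90 ± 0.21 (adjusted p = 0.03 over all probes). The Mfap2 call was lost without WT late replicate 3 (adjusted p = 0.06), KO late replicate 1 (0.067) or KO late replicate 2 (0.065), at differences of 0.82, 0.92 and 0.84. Without both KO late arrays that carried Xist, which leaves KO late replicate 3 alone, Fbn2 differed by 1.34 ± 0.33 (adjusted p = 0.2) and Mfap2 by 0.79 ± 0.27 (adjusted p = 0.31), and 1 of all genes was called.

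Fbn1, the main fibrillin of mature microfibrils, was 2.37, 2.32 and 2.37 in WT late and 2.67, 2.81 and 2.82 in KO late replicates 1 to 3. All KO late values were higher, but the difference of 0.41 ± 0.21 (SE) was not called when the spread was shared over 4 groups (adjusted p = 0.25). With only the 2 late groups in the fit, whose Fbn1 arrays were close to each other, it was called (adjusted p = 0.025). Fbln1, a fibulin that binds fibronectin, laminin and versican, was 0.41, 0.46 and -0.83 in WT late arrays and 0.90, 0.99 and 0.87 in KO late arrays. The groups did not overlap, yet WT late replicate 3 was far below the other WT arrays and the difference of 0.91 ± 0.29 was not called (adjusted p = 0.086). Without that array it was 0.49, the lowest value under any alternative.

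Efemp1 (fibulin-3), a fibulin of fascia and basement membranes, had the largest negative difference, -0.93 ± 0.35 (adjusted p = 0.13). Its arrays overlapped, at 2.65, 3.61 and 3.72 in WT late and 2.46, 2.87 and 1.86 in KO late replicates 1 to 3. Eln was lower in each KO late array than in any WT late array, but by -0.49 ± 0.60 (adjusted p = 0.66). The shared spread took in the early arrays, with an SD of 1.40 in WT early and 0.72 in KO early. In WT late and KO late arrays it was 0.49 and 0.08. With only the 2 late groups in the fit Eln was still not called (adjusted p = 0.23). Mfap5, the other microfibril-associated glycoprotein, differed by -0.16 ± 0.29, Fbln5, which guides elastin onto microfibrils, by 0.22 ± 0.21, Efemp2 (fibulin-4), which brings lysyl oxidase to elastin, by 0.10 ± 0.14, and Fbln2 by -0.06 ± 0.09. None of these 4 was called, with adjusted p between 0.57 and 0.78 in limma.

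**Figure D2:**
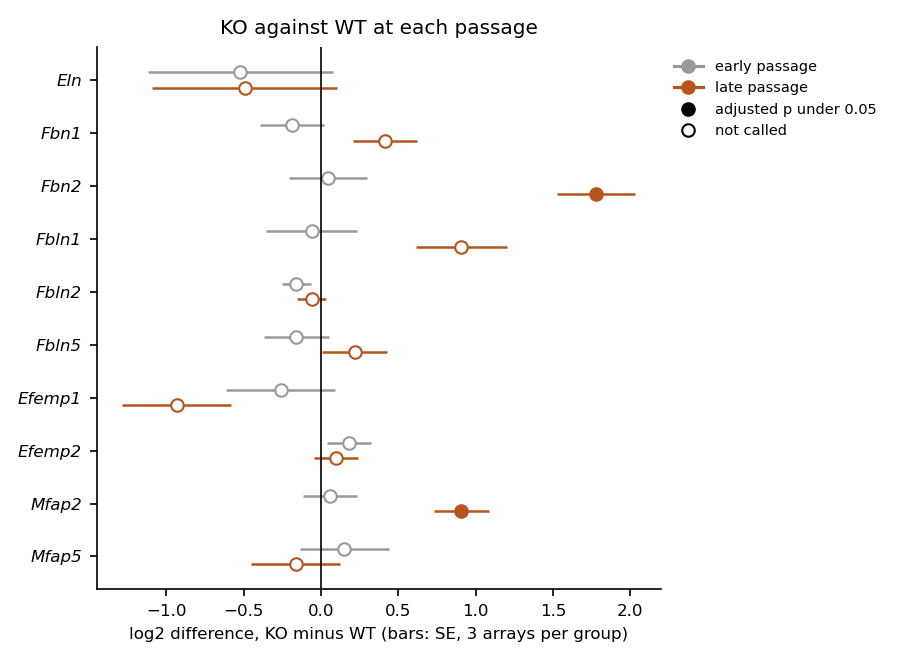
KO minus WT log2 difference (x axis, bars: SE, 3 arrays per group) of each gene (y axis) at early passage in grey and late passage in brown, with filled points at an adjusted p under 0.05. The only filled points are Fbn2 at 1.78 and Mfap2 at 0.91, both at late passage.

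Markers of other cells moved in the same comparison, in which 7.83% of all genes were called. Of 7 cartilage markers tested 5 were called higher in KO late arrays. Cnmd, which was called, was above background on only 2 of 3 WT late arrays. The list's summed signal, in multiples of the 75th percentile, was 29.5 to 34.6 in WT late and 36.6 to 49.2 in KO late arrays. The largest part of these sums was Col2a1, which was not called and differed by 0.10 ± 0.39 (adjusted p = 0.91). Of 8 macrophage markers 2 were called lower and 0 had a positive difference, with a list median of -1.12. Their summed signals were 54.9 to 96.2 in WT late and 22.6 to 47.2 in KO late arrays. Of 6 smooth muscle markers 2 were called lower, Des and Myocd, which were above background on 0 of 3 KO late arrays, while the sums overlapped at 459.6 to 591.2 and 391.6 to 483.9. Of 10 fibroblast markers 2 were called higher and 1 lower, with sums of 407.5 to 481.3 in WT late and 509.8 to 569.2 in KO late arrays. Of 2 epithelial markers tested Krt19 was called lower, by -2.06 ± 0.39 (adjusted p = 0.016), and Krt18 differed by -1.96 ± 0.59 (adjusted p = 0.07), with sums of 1.35 to 1.73 in WT late and 0.328 to 0.394 in KO late arrays. Of 4 neural and glial markers 1 was called higher, Map2, by 1.17 ± 0.24 (adjusted p = 0.02), with overlapping sums of 10.5 to 11.6 and 8.39 to 10.8. The endothelial marker Cdh5 and the epithelial markers Krt8 and Cdh1 were above background on 0 arrays. The part of these cells in the Fbn2 and Mfap2 differences was not tested, and in RNA from whole cultures fewer cells of a type and less RNA per cell cannot be told apart.

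In WT cells the change with passage took in the elastin core, both fibrillins and Mfap2. Eln fell 5.44-fold, Fbn2 3.14-fold, Fbn1 1.89-fold and Mfap2 1.73-fold from early to late passage. All 10 members had a negative difference, though Fbln2 turned to 0.14 and Efemp2 to 0.08 with quantile scaling and Fbln2 to 0.03 with another background correction. With 1 array left out, Efemp1 turned to 0.12 without WT late replicate 1, and Efemp2 and Fbln2 turned to at most 0.06 without 1 of several arrays. The median difference was -0.69 over the members and -0.0043 over all genes, of which 49.4% were positive. The 4 of 10 members called lower stood beside 4.37% of all genes called lower and 10.6% called in either direction. The same 4 genes were the ones whose early and late arrays did not overlap, beside 27.7% of all genes.

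Eln was at 2.16, -0.26 and 2.17 in WT early arrays, as given above, and at -0.53, -1.43 and -1.30 in WT late replicates 1 to 3. The low WT early replicate 2 was still above all WT late arrays, and the probe's background-subtracted intensity over all 12 arrays ran from 234.9 to 3059. The difference was -2.44 ± 0.60 (SE, n = 3 per group, adjusted p = 0.03), and within slides it was -2.69, -1.17 and -3.47. Without WT early replicate 2 the fall was larger, at -3.25 (adjusted p = 0.004). The call was lost without WT early replicate 1 (0.067), WT early replicate 3 (0.09), WT late replicate 2 (0.085) or WT late replicate 3 (0.076), at -2.04 to -2.34.

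Fbn2 was 3.88, 4.11 and 4.05 in WT early replicates 1 to 3, and 2.62, 2.54 and 1.93 in WT late arrays. The lowest early value was above the highest late value by more than 1 log2 unit. The difference was -1.65 ± 0.25 (SE, adjusted p = 0.0053), and -1.74 ± 0.39 by the dimmer probe (adjusted p = 0.024 over all probes). It was called with each array left out in turn and lost only with 1 weight per group (adjusted p = 0.057), of 15 alternatives run.

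Fbn1 was 2.87, 3.31 and 3.62 in WT early replicates 1 to 3 and 2.37, 2.32 and 2.37 in WT late arrays. Early arrays were spread widely and late arrays closely, without overlap. The difference was -0.91 ± 0.21 (SE, adjusted p = 0.023). It was not called without WT early replicate 2 (0.06) or 3 (0.06), or without WT late replicate 1 (0.057), 2 (0.061) or 3 (0.05), at -0.74 to -0.92.

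Mfap2 was 3.77, 3.81 and 3.76 in WT early replicates 1 to 3, the tightest of its groups, and 3.20, 2.95 and 2.81 in WT late arrays. All late arrays were lower, by -0.79 ± 0.17 (SE, adjusted p = 0.021), and the dimmer probe gave -0.87 ± 0.21 (adjusted p = 0.029 over all probes). The call was lost without WT early replicate 2 (0.056), WT late replicate 2 (0.058) or WT late replicate 3 (0.059), at -0.78, -0.77 and -0.70.

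Of the 4 members called lower with passage in WT cells, Eln and Fbn2 were not searched for motifs. The sequences upstream of Fbn1 and Mfap2 are shown. They come from before the annotated start in RefSeq promoters on GRCm38.p6, a build newer than the array's, and 7 of 10 members had an entry. The Fbn1 stretch is chr2:125506486-125506688 on the minus strand, which stops 48 bases before the start, with its GC box in capitals, and the Mfap2 stretch is chr4:141010174-141010423 on the plus strand, with a reverse-strand CCAAT box in capitals.
Fbn1: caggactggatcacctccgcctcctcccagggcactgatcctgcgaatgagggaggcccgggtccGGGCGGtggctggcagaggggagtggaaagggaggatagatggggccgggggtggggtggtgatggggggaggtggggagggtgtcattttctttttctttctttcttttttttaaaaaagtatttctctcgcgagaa
Mfap2: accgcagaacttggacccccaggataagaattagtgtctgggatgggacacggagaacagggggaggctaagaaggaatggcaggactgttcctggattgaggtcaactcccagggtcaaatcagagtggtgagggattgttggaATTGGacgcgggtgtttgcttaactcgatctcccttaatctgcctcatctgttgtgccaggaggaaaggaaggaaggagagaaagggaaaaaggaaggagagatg
Both strands were searched for the TATA box, spelled TATAAA, and the CCAAT box, spelled as its name says. The search also covered the GC box, spelled GGGCGG, the AP-1 site, spelled TGANTCA, and the SMAD element, spelled GTCTAGAC. The 2 matches found lay in different promoters and did not overlap another motif. The Fbn1 GC box lay 185 bases before the start, and 25.2% of all promoters hold one in the same window. The Mfap2 CCAAT box lay 105 bases before the start, and 33.8% of all promoters hold one. No other searched letters occurred in either stretch, and the bases nearest the Fbn1 start, where a TATA box would lie, were not searched.

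The other members had smaller or more variable negative differences in WT cells, none called. Fbln1 differed by -0.75 ± 0.29 (adjusted p = 0.13), most of it from WT late replicate 3, with -0.03, -0.51 and -1.71 within slides 1 to 3. Mfap5 differed by -0.62 ± 0.29 (adjusted p = 0.19) and Fbln5 by -0.44 ± 0.21 (adjusted p = 0.2), each lower within all 3 slides. Efemp1, Efemp2 and Fbln2 differed by -0.21 ± 0.35, -0.04 ± 0.14 and -0.01 ± 0.09.

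Cell type markers moved in the same comparison, in which 10.6% of all genes were called. Of 10 fibroblast markers 2 were called lower (Lum and Col1a2) and 0 higher, and the list's summed signal was 554.8 to 671.5 in WT early and 407.5 to 481.3 in WT late arrays. Of 8 macrophage markers 1 was called higher, Lyz2, and all 8 had a positive difference, with a list median of 0.94. Their sums were 29.5 to 78.6 in WT early and 54.9 to 96.2 in WT late arrays. Of 4 neural and glial markers 1 was called higher and 0 lower. Their sums were 7.46 to 8.26 in WT early and 10.5 to 11.6 in WT late arrays, without overlap. The smooth muscle marker Des and the cartilage marker Col9a1 were called lower, each the only call of its list. Their part in the fall of the elastic fibre genes was not tested.

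In KO cells the change with passage involved Eln and Mfap5. Eln fell 5.34-fold and Mfap5 1.92-fold, which were 2 of 10 members beside 9% of all genes called lower and 18.9% called in either direction. Early and late KO arrays did not overlap for 4 of 10 members, with Fbln1 higher and Eln, Fbln5 and Mfap5 lower, beside 51.9% of all genes. The median difference was -0.09 over the members and -0.05 over all genes.

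Eln was 0.06, 0.99 and 1.47 in KO early and -1.67, -1.52 and -1.55 in KO late replicates 1 to 3. The late arrays lay close together and below the other 9 arrays of the study. The difference was -2.42 ± 0.60 (SE, n = 3 per group, adjusted p = 0.02). It was called without KO early replicate 1 and lost without KO early replicate 2 (0.065) or 3 (0.054), or KO late replicate 1 (0.067), 2 (0.057) or 3 (0.055), at -2.10 to -2.45. Without the KO late arrays that carried Xist it was -2.39 ± 0.94 (adjusted p = 0.26).

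Mfap5, which binds fibrillins, was 2.52, 2.37 and 2.22 in KO early and 1.43, 1.08 and 1.78 in KO late replicates 1 to 3. The groups did not overlap and differed by -0.94 ± 0.29 (SE, adjusted p = 0.046). This call was the least stable, and it was lost with any of the 6 KO arrays left out. Without KO early replicates 1, 2 or 3 the adjusted p was 0.14, 0.11 or 0.061, and without KO late replicates 1, 2 or 3 it was 0.12, 0.16 or 0.052. Without both KO late arrays that carried Xist the difference was -0.60 ± 0.41 (adjusted p = 0.54).

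The microfibril genes that fell in WT cells were not called in KO cells. Fbn2 was 3.65, 4.14 and 4.39 in KO early and 4.23, 4.49 and 3.70 in KO late replicates 1 to 3, which overlapped, and differed by 0.08 with a 95% interval from -0.48 to 0.64. Mfap2 was 3.43, 3.89 and 4.20 in KO early and 3.88, 4.03 and 3.78 in KO late arrays, and differed by 0.06 with an interval from -0.33 to 0.45. For both genes KO early replicate 1 was the lowest of the 6 KO arrays and KO early replicate 3 the highest or next to it. Fbn1 differed by -0.31 ± 0.21 (adjusted p = 0.31) and Efemp1 by -0.89 ± 0.35 (adjusted p = 0.11). Fbln1, Fbln2, Fbln5 and Efemp2 differed by 0.21 ± 0.29, 0.09 ± 0.09, -0.06 ± 0.21 and -0.13 ± 0.14, none called.

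In the same comparison, in which 18.9% of all genes were called, 3 of 7 cartilage markers were called higher. Cnmd, which was called, was above background on only 2 of 3 KO early arrays. The cartilage sums were 32.3 to 45.5 in KO early and 36.6 to 49.2 in KO late arrays. The smooth muscle markers Des and Myocd and the epithelial markers Krt18 and Krt19 were called lower. Smooth muscle sums were 412.9 to 577.5 in KO early and 391.6 to 483.9 in KO late arrays, and epithelial sums were 0.895 to 2.31 and 0.328 to 0.394. Of 10 fibroblast markers 1 was called lower, Thy1, with sums of 588.0 to 661.6 in KO early and 509.8 to 569.2 in KO late arrays. Of 4 neural and glial markers 1 was called higher and 0 lower. Their sums were 6.51 to 7.41 in KO early and 8.39 to 10.8 in KO late arrays, without overlap. The part of these cells in the Eln and Mfap5 differences was not tested.

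Whether passage acted differently on these genes in KO and WT cells was tested as the difference of the passage responses. Of 10 members 0 passed, beside 0.0871% of all genes, and 3 had an unadjusted p under 0.05 in limma. Fbn2 came nearest, with a difference of responses of 1.73 ± 0.36 (adjusted p = 0.11), and it was 1.83, 1.92 and 1.43 within slides 1 to 3. Mfap2 gave 0.85 ± 0.25 (adjusted p = 0.21), Fbln1 0.97 ± 0.42 (0.34) and Fbn1 0.60 ± 0.29 (0.39). Eln gave 0.03 ± 0.85, with a 95% interval from -1.86 to 1.91, so the similar size of its fall in both genotypes does not show that the falls were equal. Of 21 alternatives Fbn2 passed in 1, the fit without KO early replicate 3, at 1.90 ± 0.36 (adjusted p = 0.047). In that fit Mfap2 had an adjusted p of 0.056, and 230 of all genes passed in place of 17. Without KO early replicate 2, KO late replicate 1 or KO late replicate 2, only 1 of all genes passed. With any other single array left out, 8 to 42 passed.

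**Figure D3:**
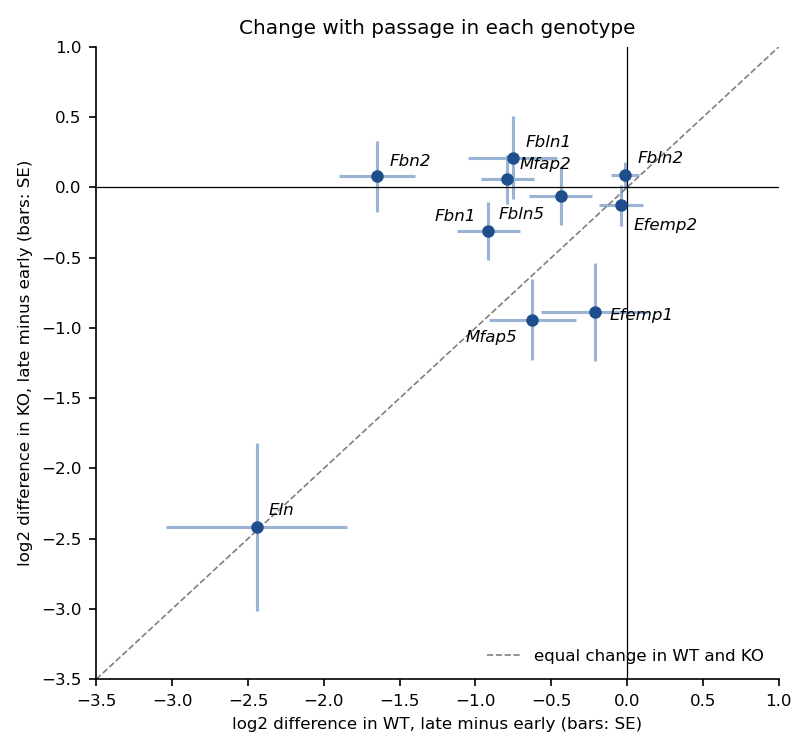
Late minus early log2 difference in WT (x axis) and in KO (y axis) for the 10 genes, with SE bars and a dashed line of equal change. Eln lies near the line at -2.44 and -2.42, while Fbn2 lies at -1.65 in WT and 0.08 in KO.

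The genes with 2 probes gave a check within the gene. Over the 12 arrays the 2 probes correlated at 0.95 for Fbn2, 0.93 for Fbln1, 0.93 for Mfap2 and 0.85 for Fbln5. Their differences had the same sign in 5 of 5 comparisons for Fbln1 and in 4 of 5 for each of the others. The signs that differed belonged to KO against WT at early passage for Fbn2 (0.05 and -0.37) and Mfap2 (0.06 and -0.21) and at late passage for Fbln5 (0.22 and -0.11), where neither probe was called.

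**Figure D4:**
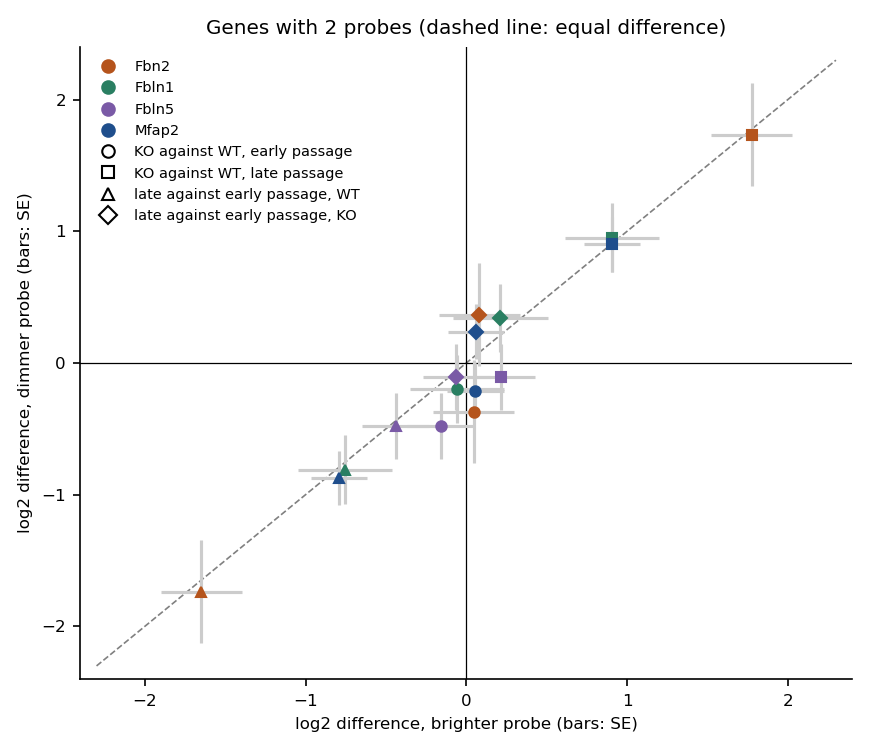
Log2 difference by the brighter probe (x axis) and the dimmer probe (y axis) for the 4 genes with 2 probes in 4 comparisons, with SE bars and a dashed line of equal difference. The largest differences, those of Fbn2, were 1.78 and 1.74 for KO against WT at late passage and -1.65 and -1.74 with passage in WT.

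Among the members, Fbn2 and Mfap2 had the most similar profiles. Their correlation over the 12 arrays was 0.97, and 0.84 after each group's mean was removed, so arrays of 1 group that were high in the fibrillin were mostly high in the glycoprotein that binds it. Fbn2 and Fbln1 correlated at 0.84, and 0.71 after removal of group means. Eln correlated with Mfap5 at 0.70, Fbn1 at 0.69 and Fbn2 at 0.36, and at 0.15, 0.27 and 0.22 after removal of group means. The 5 genes outside the set with the profile most like that of Eln, by correlation over 12 arrays, were Ngfr (0.957), the nerve growth factor receptor p75, Csdc2 (0.943), Nfya (0.941), a subunit of the CCAAT-binding factor NF-Y, Glt28d2 (0.940) and Gper1 (0.940). Ngfr was above background on 10 of the arrays and the other 4 on all. These correlations describe 12 arrays that share group, slide and scaling.

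Other genes of elastic fibre assembly were given by a fixed list of 32, of which 29 passed the filter. At early passage 0 differed between KO and WT in limma, beside 0.0359% of all genes. At late passage 5 were higher and 3 lower in KO, beside 3.46% of all genes called higher and 4.37% called lower. The list median was 0.15. Mfap4, a microfibril-associated protein that binds elastin, was higher by 1.81 ± 0.45 (adjusted p = 0.039), and Vcan, the proteoglycan versican, by 1.24 ± 0.27 (adjusted p = 0.024). Adamts17, a metalloprotease of the fibrillin-associated ADAMTS group, was higher by 2.00 ± 0.40 but above background on only 1 of 3 WT late arrays. Thsd4 (ADAMTSL6), which promotes fibrillin-1 microfibril assembly, was lower by -1.69 ± 0.27 and above background on only 1 of 3 KO late arrays.

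With passage in WT cells, 3 of the 29 assembly genes were called lower and 1 higher, beside 10.6% of all genes called in either direction. The list median was -0.36. Mfap4 fell by 2.31 ± 0.45 log2 units (adjusted p = 0.013), Vcan by 1.27 ± 0.27 (adjusted p = 0.017) and Adamts17 by 2.99 ± 0.40, a size that is uncertain because it was above background on only 1 of 3 WT late arrays. Mmrn2, an EMILIN-family protein known from blood vessels, rose by 0.82 ± 0.15 (adjusted p = 0.011). In KO cells 2 rose and 3 fell, beside 18.9% of all genes called in either direction. The list median was -0.04. Mmrn2 rose by 1.18 ± 0.15 and Emilin1, a glycoprotein at the border of elastin and microfibrils, by 0.69 ± 0.18. Emilin2 fell by 1.39 ± 0.22 and Thsd4 by 2.22 ± 0.27, a size that is uncertain because it was above background on only 1 of 3 KO late arrays. For the difference of the passage responses 0 of 29 passed in limma, beside 0.0871% of all genes. Lox, the lysyl oxidase that crosslinks elastin, is named outside the rule for its role, and it had no call in any comparison, with group means of 3.41 ± 0.38 (SD, n = 3) in WT early and 3.40 ± 0.18 in WT late arrays.

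Of 9 proteases known to cut elastin or fibrillin 7 were tested, and Mmp7 was above background on 0 arrays. Ctsk, the elastin-cleaving cathepsin K, was lower in KO late than in WT late arrays by -1.40 ± 0.27 (adjusted p = 0.016), and it fell with passage by 1.12 ± 0.27 in WT and 2.62 ± 0.27 in KO cells. Mmp14, a membrane-bound metalloprotease, fell by 0.81 ± 0.21 in WT cells. Ctsl, cathepsin L, rose with passage by 0.60 ± 0.13 in WT and 0.67 ± 0.13 in KO cells. Of 8 integrin chains that bind these matrix proteins 6 were tested, and 1 was called. Itgav, the alpha-V chain, was lower in KO late than in KO early arrays by -0.74 ± 0.21 (adjusted p = 0.033). Of all genes 18.9% were called in that comparison.

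**Figure D5:**
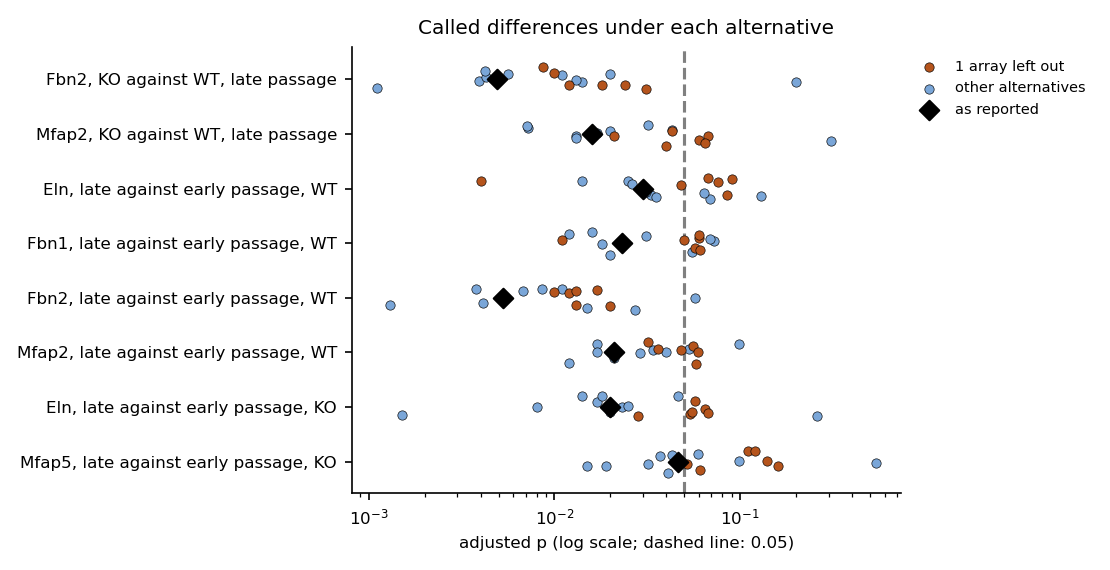
Adjusted p from limma (x axis, log scale, dashed line at 0.05) of the 8 called differences (y axis) as reported and under each alternative, with fits that leave out 1 array in brown. Fbn2 stayed left of the line in 15 of 16 alternatives at late passage and in 14 of 15 with passage in WT, while Mfap5 with passage in KO did so in 7 of 16.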

How the data were processed

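Spot intensity in the deposited scanner files was background-subtracted by Agilent Feature Extraction (11.5.1.1 per the file headers, 10.7.3.1 in the submitters' processing notes). The authors' deposited value table holds log2 values, from its values scaled to each array's 75th percentile and centred per probe, and served as an alternative. Intensities of 12 arrays were taken to log2 minus the array's 75th percentile, without outlier spots. A probe had to exceed background clearly on each array of 1 or more groups, and the brightest stood for a gene. Accessions were matched to RefSeq symbols (GRCm38.p6).

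Contrasts came from 1 limma 3.58.1 model of 4 group means (R 4.3.3), with Benjamini-Hochberg adjustment over 19507 genes and an adjusted p under 0.05 called. The code was tested on simulated data. With 3 arrays per group, which limits precision, an exact permutation cannot give a p below 0.1. Per the file headers each of 3 slides held 1 array per group, and the replicate number was the slide. Deviations of same-numbered WT early and late arrays correlated at 0.28, 0.24 and 0.14. Because the number is also the slide, a shared culture and a shared slide cannot be told apart. Same-numbered arrays of the other comparisons were mostly below 0.1.

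The members and gene lists were chosen with earlier results of these data known. All members were named, and of each partner list the 4 called genes with the largest difference per comparison. Alternatives changed the scaling, background correction, filter, probe choice, values, weights, block and arrays in the fit.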

Additional observations from a re-analysis of the deposited data

How the results depend on the processing

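The counts of members called, 0, 2, 4, 2 and 0 in the 5 comparisons in the order above, were the same with quantile scaling, normexp background correction, the authors' deposited table, the mean of all probes, and only probes above background on all arrays. The members behind an equal count could differ. With quantile scaling, those called with passage in KO included Fbln2, which was not called in the main fit. With the replicate number, which is the slide, as a block they were also 0, 2, 4, 2 and 0, so this block changed no count. Leaving out 1 array gave 1 to 2 members for KO against WT at late passage, 1 to 3 with passage in WT, 0 to 1 with passage in KO and 0 to 1 for the difference of responses. Without the KO late arrays with Xist the late comparison and the KO passage comparison each had 0, the remaining array being assumed to vary like the other groups. Without a filter on dim probes, which adds genes to the adjustment, 1 member was called with passage in WT and 1 in KO. In WT the count was 0 with 1 weight per group and 2 with only the 2 groups in the fit, while both settings gave 3 for KO against WT at late passage. The cause was not tested.

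Of 830 values of single members under alternatives, 785 kept their direction and call, 41 lost the call, 4 gained it and none reversed, counting as a direction only a value that was called or beyond its SE. The 4 gains were Fbn1 and Fbln1 for KO against WT at late passage, Fbln2 with passage in KO (0.26 with quantile scaling, adjusted p = 0.047) and Fbn2 for the difference of responses. Counts over all genes ranged from 1 to 3097 around 1528 for KO against WT at late passage, from 554 to 2459 around 2065 with passage in WT, from 165 to 6581 around 3696 with passage in KO, from 0 to 230 around 17 for the difference of responses and from 1 to 7 around 7 at early passage. Scaling moved their split: at late passage 675 were higher and 853 lower, against 1002 and 788 with quantile scaling. With passage in WT it was 1213 higher and 852 lower, against 799 and 1240 with normexp. The weights per group and the normexp on median signals were chosen after seeing the data, because weights per array did not converge and the files hold no mean signal, so weights per array and normexp on mean signals were not run. The 3 arrays per group limit the precision of every difference.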
